A study of Rattus norvegicus with 12 samples.

Results

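The NR4A receptors are the 3 genes Nr4a1 (Nur77), Nr4a2 (Nurr1) and Nr4a3 (Nor1), and they were read here by 7 probe sets of the 31096 on a rat Affymetrix array: 1 for Nr4a1, 2 for Nr4a2 and 4 for Nr4a3. The annotation holds 13025 distinct gene symbols. A probe set was taken when its gene symbol in the deposited annotation was one of these 3 names, whatever its signal. The study used OLN cells, a rat oligodendroglial cell line, that stably express alpha-synuclein in every group. The cells were transfected with Fugene-6, either with a p25alpha plasmid in pcDNA3.1 (p25alpha cells) or with the empty vector (mock cells), and total RNA was taken after 8, 12 and 16 h. Each of the 6 groups had 2 arrays, 1 from experiment 1 and 1 from experiment 2, which gave 6 pairs of a p25alpha and a mock array of the same time and experiment. Nothing in the labels ties experiments 1 and 2 to separate cultures, so each p-value reflects only how these arrays scatter, and that scatter may be technical. The design compares cells with both proteins with cells that have alpha-synuclein alone. No probe set carries the symbol Tppp, the gene of p25alpha, so the transfection was not checked on these arrays, and no source used here states what share of cells took up the plasmid.

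NR4A proteins are nuclear receptors for which no hormone ligand is needed: their ligand pocket is filled by bulky side chains, and their activity is set mainly by how much protein the cell makes. Their genes are early response genes, switched on within minutes to hours by cyclic AMP, calcium, growth factors and stress, often through CREB, a factor that binds the cyclic AMP response element (CRE). The proteins bind DNA as monomers at the NBRE, a short element that holds a nuclear receptor half-site, or as dimers, and Nr4a1 and Nr4a2 also pair with retinoid X receptors. Nr4a1 is known for its part in the death of T cells and in steroid-producing tissue, Nr4a2 for the formation of dopamine neurons and for damping inflammatory genes in glia, and Nr4a3 for muscle, vessel wall and blood cells.

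The CRE is the element through which these genes are best known to be induced, so the 250 bases before the transcript start of the 2 members in RefSeq's promoter table (build GRCr8) are shown with the CRE half-site in capitals. The half-site is TGACG, which reads CGTCA on the other strand.
Nr4a1: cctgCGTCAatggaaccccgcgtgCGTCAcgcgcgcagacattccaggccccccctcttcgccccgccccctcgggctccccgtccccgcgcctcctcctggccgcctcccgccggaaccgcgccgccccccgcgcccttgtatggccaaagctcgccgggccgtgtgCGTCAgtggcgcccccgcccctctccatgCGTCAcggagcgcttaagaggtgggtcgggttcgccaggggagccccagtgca
Nr4a2: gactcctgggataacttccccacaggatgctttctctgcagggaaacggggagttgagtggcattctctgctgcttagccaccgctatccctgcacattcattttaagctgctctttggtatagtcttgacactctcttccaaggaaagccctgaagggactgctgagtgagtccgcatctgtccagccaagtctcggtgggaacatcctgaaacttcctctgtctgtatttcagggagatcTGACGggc
The Nr4a1 stretch is chr7:134259888-134260137 on the plus strand and has a GC content of 74.8%. The Nr4a2 stretch is chr3:62104888-62105137 on the minus strand and has a GC content of 52.0%. Both windows lie inside the span that RefSeq gives the gene, upstream of the transcript start that the table uses. Each gene's span thus begins before the start used, and the bases before any other start were not searched. Nr4a3 was not matched to a promoter entry. In the Nr4a1 window the half-site stood 4 times on the minus strand of the gene, first at -246, -226, -82 and -53 from the start, and each time it lay within the CRE-like element TGCGTCA, so these matches overlap fully. The Nr4a2 window held 1 half-site, on the gene's own strand, from -8 to -4. Both strands of all 33469 promoters in the table, each 250 bases long, were searched for the same letters. At least 1 half-site stood in 18.2% of them and at least 4 stood in 58, or 0.173%. TGCGTCA stood in 1.7% of the promoters, and Nr4a1 was the only 1 of the 33469 with at least 4 matches. Neither window held the full CRE (TGACGTCA, in 1.6% of all promoters), the AP-1 element (TGAGTCA, in 4.0%) or the NBRE (AAAGGTCA, in 1.2%). A match is only a description of these letters.

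The values are MAS5 signals in linear units, made by the authors so that the trimmed mean was 150.1 on every array, each with a detection call of present, marginal or absent. Between 49.3% and 55.2% of probe sets were called present, and the lowest signal called present was 2.7 to 6.4. The ratio of the 3′ to the 5′ probe set of actin, a sign of RNA or labelling quality, was 2.14 to 3.12 in experiment 1 and 4.65 to 7.05 in experiment 2. Each experiment holds 1 array of every group. Of 13 oligodendrocyte lineage markers with a probe set, 8 (among them Olig1, Sox10, Nkx2-2, Pdgfra, Cspg4, Cnp and Mog) were present on all 12 arrays, while Olig2 and Mobp were present on none. Of 6 astrocyte markers, Gfap, S100b and Slc1a3 were present on all 12 arrays. So were Map2 and Gad1 of 8 neuron markers, Col1a1 and Pdgfrb of 6 fibroblast and smooth muscle markers, and 0 of 6 microglia markers. The summed signal of the lineage markers was 3526 to 4934 on p25alpha arrays and 3909 to 4842 on mock arrays, so the arms overlapped.

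Over all times, 1 of the 4 NR4A probe sets that could be tested passed the threshold, a Nr4a3 probe set that was 1.675-fold higher in p25alpha cells. Nr4a1 gave a difference in the other direction that did not pass, and Nr4a2 was near the detection limit and showed no constant direction. Tested means called present on at least 2 of the 12 arrays, which 19248 probe sets (61.9%) were. The test was limma on log2 signal over all of these, with the experiment as a replicate block and p-values adjusted by Benjamini-Hochberg at a threshold of 0.05. By the same rule 46 of the 19248 probe sets were called, or 0.239%, of which 40 (0.208%) were higher and 6 (0.0312%) lower in p25alpha cells.

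Nr4a3 was read by probe set 1369067_at as present on all 12 arrays. Its signal in p25alpha cells was 104.8 and 101.1 at 8 h, 127.1 and 121.1 at 12 h, and 125.2 and 102.9 at 16 h, experiment 1 first in each pair. In mock cells it was 63.7 and 81.6 at 8 h, 65.5 and 61.6 at 12 h, and 72.0 and 62.9 at 16 h. Every p25alpha array lay above every mock array, and the nearest were the p25alpha array of experiment 2 at 8 h and the mock array of the same experiment and time. The mean was 113.7 ± 12.0 in p25alpha cells and 67.9 ± 7.6 in mock cells (SD, n = 6 each). Full separation of the 6 p25alpha arrays above the 6 mock arrays was seen in 83 tested probe sets, or 0.431%.

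The rise of Nr4a3 (1369067_at) over all times was 0.74 ± 0.10 on the log2 scale (SE), with a limma adjusted p of 0.0499, the last of the 46 calls in order of p. Without the replicate block the same difference had a limma adjusted p of 0.252, and 4 probe sets were called in place of 46. Leaving out any single array ended the call, with limma adjusted p-values of 0.0508 to 0.173 and log2 differences of 0.66 to 0.83. The size held in both experiments: the log2 ratio averaged 0.82 ± 0.12 in experiment 1 and 0.66 ± 0.34 in experiment 2 (SD, n = 3 pairs each). The exact sign-flip permutation test over the 6 pairs gave a two-sided p of 0.03125, the smallest that 6 pairs allow, with p25alpha higher in 6 of 6. Here and below this exact test takes the 6 pairs as independent, which the labels do not settle, since each experiment gave 3 of them. A ratio above 0 in all 6 pairs was seen in 1152 tested probe sets, or 5.99%. In bulk RNA a change in the share of cells that make a transcript and a change in the amount per cell cannot be told apart.

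The deposited comparison table gave Nr4a3 (1369067_at) the call increase in all 6 pairs. In that authors' deposited table its signal log ratio was 0.8 and 0.5 at 8 h, 1.0 and 0.9 at 12 h, and 1.0 and 0.9 at 16 h. The same table calls an increase in all 6 pairs for 19 of the 19248 tested probe sets, or 0.0987%. For time steps within an arm it calls no change for this probe set throughout.

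By time, Nr4a3 (1369067_at) was 1.428-fold higher in p25alpha cells at 8 h, 1.953-fold at 12 h and 1.687-fold at 16 h, and none of these passed. The limma adjusted p-values were 0.977 at 8 h, 0.216 at 12 h and 0.325 at 16 h. Calls at single times were few over all tested probe sets: 0 (0.0%) at 8 h, 11 (0.0571%) at 12 h and 11 (0.0571%) at 16 h, and at an unadjusted limma p under 0.05 the shares were 4.88%, 9.33% and 8.66%. The group means were ordered p25alpha at 12 h (124.1), at 16 h (114.0) and at 8 h (103.0), then mock at 8 h (72.6), at 16 h (67.4) and at 12 h (63.6). Neighbours in that order overlapped in their arrays, except for the step between p25alpha at 8 h and mock at 8 h. The limma F-test for a difference of the p25alpha effect between times had an adjusted p of 0.999 for this probe set, and 0 of all tested probe sets (0.0%) were called by it.

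**Figure D1:**
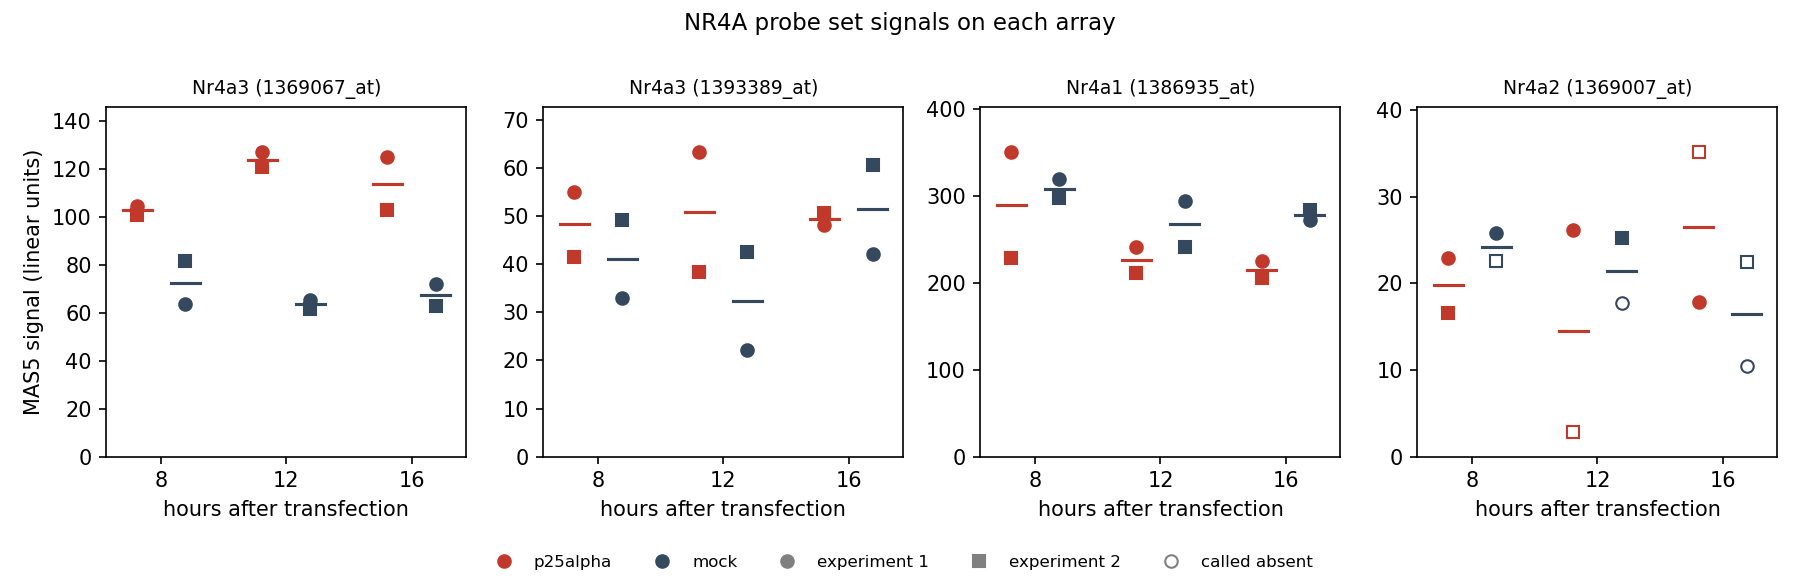
MAS5 signal (linear units, from 0) of the 4 tested NR4A probe sets against hours after transfection, with p25alpha arrays in red left of mock arrays in dark blue. Circles are experiment 1, squares experiment 2, open symbols were called absent and bars are means of 2 arrays. The 6 p25alpha arrays of Nr4a3 (1369067_at) sit between 101.1 and 127.1, above the mock arrays at 61.6 to 81.6.

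The second readable Nr4a3 probe set, 1393389_at, which the array annotation ties to an expressed sequence tag, did not pass the threshold. Its signal in p25alpha cells was 55.1 and 41.5 at 8 h, 63.3 and 38.4 at 12 h, and 48.1 and 50.7 at 16 h. In mock cells it was 33.0 and 49.3 at 8 h, 22.1 and 42.5 at 12 h, and 42.2 and 60.7 at 16 h, present on all 12 arrays, and the arms overlapped. The arms averaged 49.5 ± 9.1 in p25alpha cells and 41.6 ± 13.3 in mock cells (SD, n = 6 each). The log2 difference over all times was 0.30 ± 0.23 (SE), with a limma adjusted p of 0.596. By the ratio of these signals the 2 experiments went in opposite directions. In experiment 1 p25alpha was higher in 3 of 3 pairs, by 0.82 ± 0.67 on the log2 scale (SD). In experiment 2 it was higher in 0 of 3 pairs, at -0.22 ± 0.06 (SD). The experiments also differ in the actin ratio given above, and its part in this was not tested. This probe set is called an increase in 1 of 6 pairs of the authors' deposited table, that at 12 h in experiment 1. Its deposited signal log ratio was 0.6 and 0.1 at 8 h, 1.2 and 0.2 at 12 h, and 0.3 and 0.2 at 16 h. These deposited ratios lie slightly above 0 in experiment 2, so the direction there depends on how the ratio was made.

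The other 2 Nr4a3 probe sets were too dim to test. Probe set 1369217_at, described in the array annotation as NOR-2, was absent on all 6 p25alpha arrays, at signals of 2.9 to 26.6, and on 5 of 6 mock arrays, at 2.8 to 16.9, with 1 marginal call. Probe set 1396563_at was absent on all 6 p25alpha arrays, at 3.8 to 13.5, and present on 1 of 6 mock arrays, at 0.5 to 6.8. No fold is given for them. The rise of Nr4a3 therefore rests on 1 of its 4 probe sets.

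Nr4a1, read by the single probe set 1386935_at, was present on all 12 arrays. Its signal in p25alpha cells was 350.1 and 228.5 at 8 h, 241.5 and 210.9 at 12 h, and 224.7 and 205.4 at 16 h. In mock cells it was 319.6 and 297.3 at 8 h, 293.6 and 241.7 at 12 h, and 271.7 and 283.9 at 16 h. The p25alpha array was the lower in 5 of 6 pairs, the exception being experiment 1 at 8 h, and the arms overlapped. The means were 243.5 ± 53.8 in p25alpha cells and 284.6 ± 26.4 in mock cells (SD, n = 6 each).

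The log2 difference of Nr4a1 (1386935_at) over all times was -0.24 ± 0.10 (SE), with an unadjusted limma p of 0.0435 and an adjusted p of 0.345. Unadjusted limma p-values under 0.05 were reached by 2693 tested probe sets, or 14.0%. At single times the log2 difference was -0.12 at 8 h, -0.24 at 12 h and -0.37 at 16 h, with limma adjusted p-values of 0.994, 0.705 and 0.608. The order of these values is a description, since the F-test between times had an adjusted p of 0.999. The exact sign-flip permutation test over 6 pairs gave a two-sided p of 0.0625. In the authors' deposited table Nr4a1 was called no change in 5 pairs and marginal decrease at 16 h in experiment 2.

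In p25alpha cells Nr4a1 (1386935_at) was at 289.3 ± 86.0 at 8 h, 226.2 ± 21.6 at 12 h and 215.0 ± 13.6 at 16 h (SD, n = 2 each). The log2 differences from 8 h were -0.33 at 12 h and -0.40 at 16 h, with limma adjusted p-values of 0.90 and 0.689. The authors' deposited table calls the step from 8 to 12 h in p25alpha cells of experiment 1 a decrease, at a signal log ratio of -0.5, and no change for the other steps of Nr4a1. In mock cells the differences from 8 h were -0.21 at 12 h and -0.15 at 16 h, with limma adjusted p-values of 0.996 and 0.885. No NR4A probe set passed in any of the 4 comparisons of a later time with 8 h, in which 0 (0.0%) or, for mock cells at 12 h, 1 (0.0052%) of all tested probe sets were called by limma. At an unadjusted limma p under 0.05 the shares in p25alpha cells were 5.55% at 12 h and 7.41% at 16 h, and in mock cells 5.21% at 12 h and 7.4% at 16 h.

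Nr4a2 was at the edge of detection. Probe set 1369007_at was present on 4 of 6 p25alpha arrays and 2 of 6 mock arrays. Its signal in p25alpha cells was 22.9 and 16.6 at 8 h, 26.1 and 2.8 at 12 h, and 17.8 and 35.1 at 16 h. In mock cells it was 25.8 and 22.6 at 8 h, 17.7 and 25.2 at 12 h, and 10.5 and 22.5 at 16 h. The lowest value, 2.8, and the highest, 35.1, were both p25alpha arrays of experiment 2 and both were called absent. The means were 20.2 ± 10.8 in p25alpha cells and 20.7 ± 5.8 in mock cells (SD, n = 6 each). The log2 difference over all times was -0.30 ± 0.56 (SE), with a limma adjusted p of 0.837, and it became 0.30 without the p25alpha array of experiment 2 at 12 h. Probe set 1387410_at was absent on all 12 arrays, at 1.2 to 11.3 in p25alpha cells and 0.7 to 6.9 in mock cells. Probe set 1369007_at was called no change in all 6 pairs of the authors' deposited table.

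**Figure D2:**
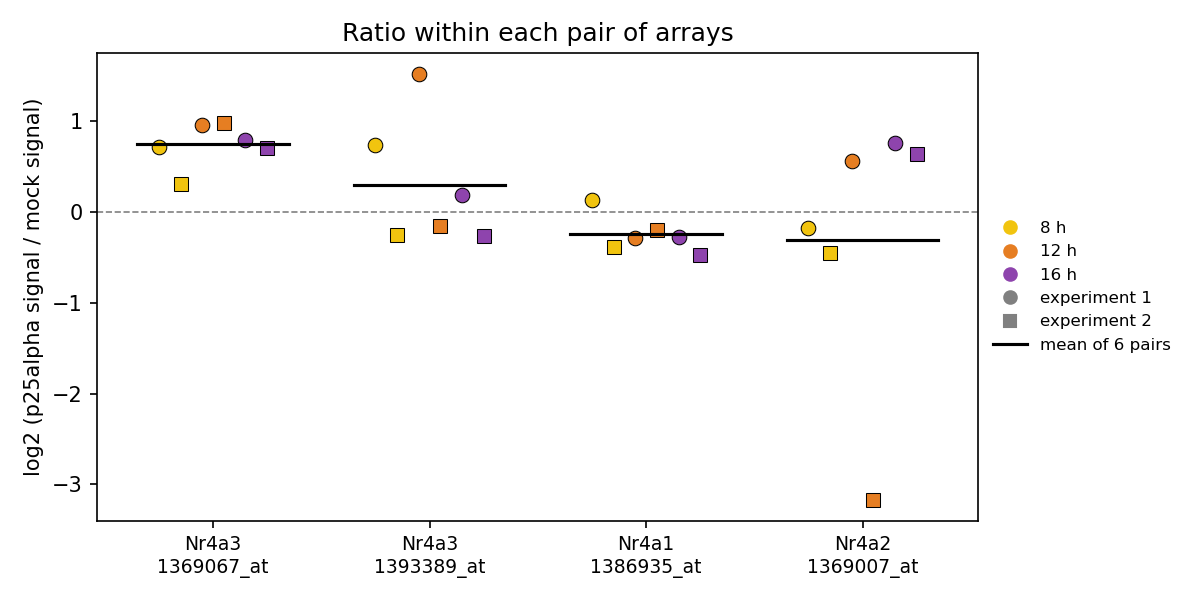
Log2 ratio of the p25alpha to the mock signal within each of the 6 pairs (vertical axis) for the 4 tested NR4A probe sets, coloured by time, with circles for experiment 1 and squares for experiment 2. Black bars are means of 6 pairs. Nr4a3 (1369067_at) runs from 0.31 to 0.98, Nr4a1 from -0.47 to 0.13, and Nr4a2 from -3.17 to 0.76.

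The ratio of Nr4a3 lay above those of Nr4a1 and Nr4a2 in every pair, while Nr4a2 and Nr4a1 had no constant order. The margin over Nr4a2 was small at 16 h, where the log2 ratios were 0.8 and 0.71 for Nr4a3 and 0.76 and 0.64 for Nr4a2. Each gene was taken by its brightest tested probe set, and 3 pairs of members were compared by an exact two-sided sign-flip permutation test on the difference of their log2 ratios. Nr4a3 minus Nr4a1 was 0.99 ± 0.28 (SD, n = 6 pairs), positive in 6 of 6, with an exact p of 0.03125 and 0.0469 after adjustment over the 3 pairs of members. Nr4a3 minus Nr4a2 was 1.05 ± 1.56, also positive in 6 of 6, with the same exact p-values of 0.03125 and 0.0469, but it was 0.43 without the 12 h pair of experiment 2. Since Nr4a2 was called absent on 6 of 12 arrays, the size of its ratio is not well measured. Nr4a2 minus Nr4a1 was -0.06 ± 1.54, positive in 3 of 6, with an exact p of 0.9375, and this wide spread does not show that they respond alike. When each gene was taken as the mean of its tested probe sets, Nr4a3 minus Nr4a1 was 0.77 with an exact adjusted p of 0.0938, and Nr4a3 minus Nr4a2 was 0.83 with 0.2812.

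Across the 12 arrays, after taking out the mean of each experiment, the probe set most like Nr4a3 (1369067_at) was that of Junb, an AP-1 subunit made in the early response, at a Pearson r of 0.966. Junb had signals of 55.4 and 43.2 at 8 h, 79.2 and 56.9 at 12 h, and 64.3 and 58.5 at 16 h in p25alpha cells. In mock cells it had 28.0 and 39.6 at 8 h, 26.3 and 17.3 at 12 h, and 29.3 and 19.3 at 16 h. Its highest mock signal, like that of Nr4a3, was at 8 h in experiment 2, but there Junb was called absent. Junb was present on 6 of 6 p25alpha and 3 of 6 mock arrays. Next came Ypel5 (r = 0.965), the chemokine gene Ccl7 (r = 0.963), the early response gene Ier3 (r = 0.962) and the stress response gene Gadd45b (r = 0.955). All 5 were higher in p25alpha cells in 6 of 6 pairs, by means of 0.50 for Ypel5 to 2.10 for Ccl7 on the log2 scale. The arrays share their arm, time and experiment, so these r values over 12 arrays largely describe the split between the arms.

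**Figure D3:**
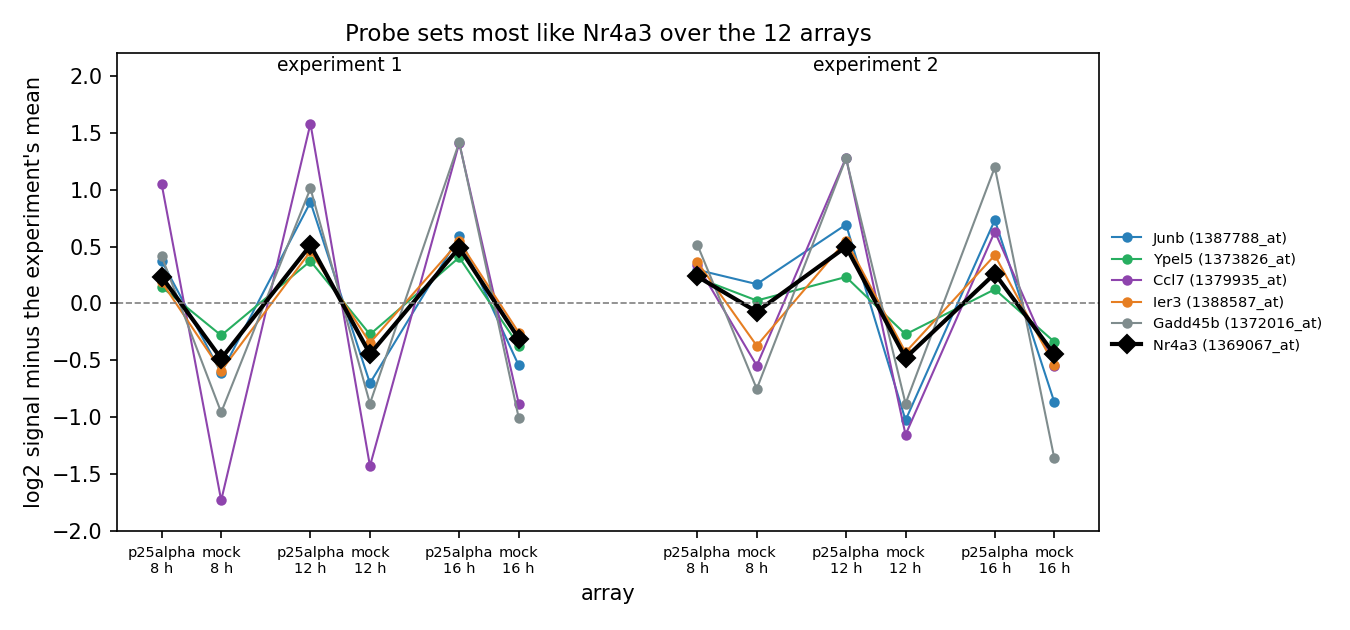
Log2 signal minus the experiment's mean (vertical axis) on each of the 12 arrays for Nr4a3 (1369067_at, black diamonds) and the 5 probe sets most like it. Within each time the p25alpha array is left of the mock array, and lines only link the points of 1 probe set. All 6 profiles are higher on the p25alpha array of every pair, and Ccl7 and Gadd45b have wider swings than Nr4a3.

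The other members had other companions. Nr4a1 was most like Eftud2 (r = 0.95), Ccnf (r = 0.936), Prelp (r = 0.931), Chd4 (r = 0.931) and Nomo1 (r = 0.928) over the same 12 arrays, and these were higher in p25alpha cells in 0 or 1 of 6 pairs. Nr4a2 was most like Yy1 (r = 0.934), Nudt21 (r = 0.92), Jkampl (r = 0.896), Epb41l5 (r = 0.882) and Scaper (r = 0.881), which were higher in p25alpha cells in 2 or 3 of 6 pairs. All 5 had their lowest signal where Nr4a2 had its own, on the p25alpha array of experiment 2 at 12 h. Without that array, left out after the values were seen, r with Nr4a2 was 0.412 for Jkampl to 0.722 for Yy1 over 11 arrays. Nr4a3 had r = -0.599 with Nr4a1 and -0.271 with Nr4a2, and Nr4a1 had 0.271 with Nr4a2. The 2 readable Nr4a3 probe sets had r = 0.437 with each other.

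Among 25 genes known as early targets of CREB, 17 were tested, 3 rose over all times, 0 fell and 14 did not pass. Of all tested probe sets 0.208% were called higher by the same rule. The list was chosen with earlier results of these data known, so its counts only describe these genes. The median log2 difference was 0.465, against 0.013 over all 19248 tested probe sets, and 16 of 17 were higher in p25alpha cells. Egr1, an early response zinc finger factor, rose 5.05-fold with a limma adjusted p of 0.00115, which was 0.00138 without the replicate block. Fos, an AP-1 subunit, rose 2.79-fold with a limma adjusted p of 0.0294, and 0.12 without the block. Btg2, an inhibitor of growth, rose 2.11-fold with a limma adjusted p of 0.0255, and 0.136 without the block, but it was present on only 2 of 6 p25alpha arrays and 1 of 6 mock arrays, and its other probe set had a log2 difference of 0.83 (limma adjusted p = 0.17). Junb was 2.28-fold higher in p25alpha cells with a limma adjusted p of 0.0519. By the brightest tested probe sets, the log2 difference of Nr4a3, 0.74, lay between that of Pde4b, a cyclic AMP phosphodiesterase, at 0.84 and that of Egr2 at 0.57. This order depends on the probe set. The other Egr2 probe set had -0.22 (limma adjusted p = 0.652), and Egr3 had 0.15 by its brightest and 0.93 by its other (limma adjusted p = 0.364).

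**Figure D4:**
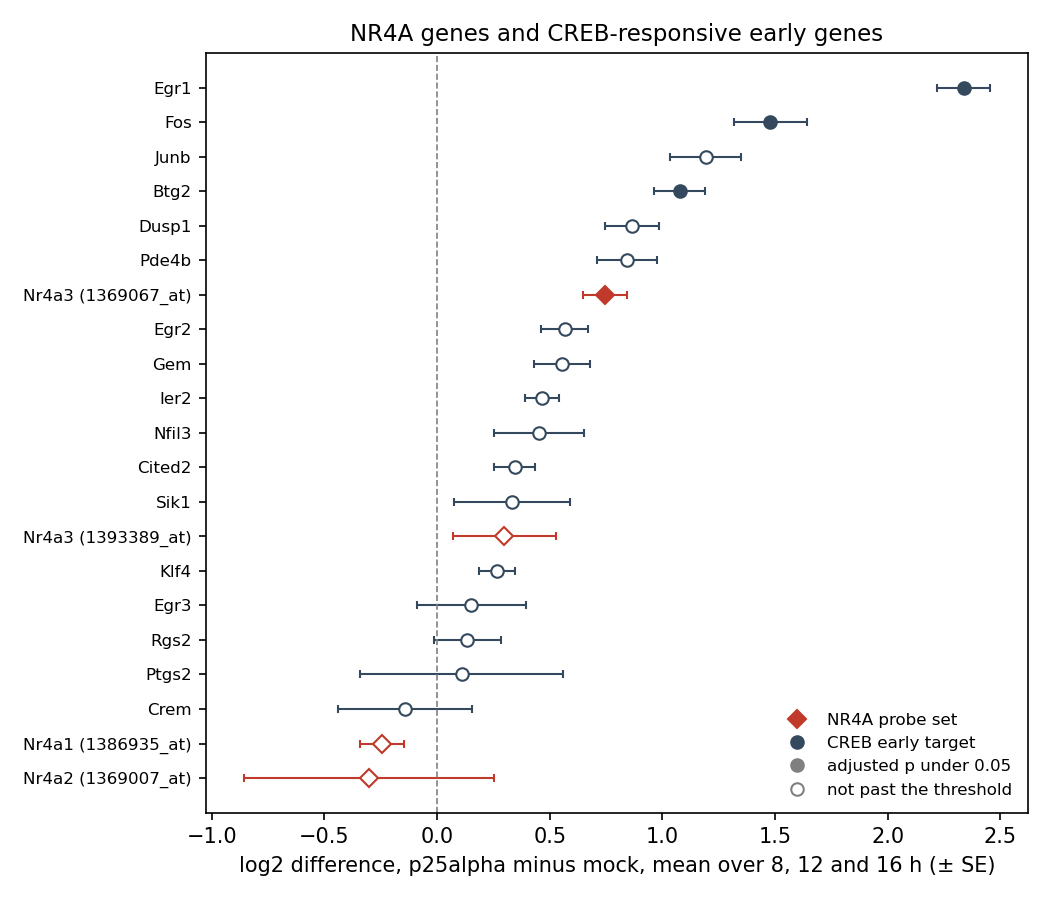
Log2 difference, p25alpha minus mock, averaged over 8, 12 and 16 h (horizontal axis, ± SE) for the 4 tested NR4A probe sets (red diamonds) and the 17 tested CREB early targets (blue circles). Filled symbols passed a limma adjusted p of 0.05. Egr1, Fos, Btg2 and Nr4a3 (1369067_at) are filled, and Nr4a1 and Nr4a2 lie at the bottom, below 0.

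The transcripts of the kinases and factors that act upstream of NR4A genes gave 0 calls. Of 26 such genes 20 were tested, 9 were higher in p25alpha cells and the median log2 difference was -0.03, against 0.013 over all tested probe sets. With each gene taken by its brightest tested probe set, as in every list, the largest differences were -0.44 for the kinase gene Rps6ka3 (adjusted p = 0.765), -0.20 for Rps6ka5 (adjusted p = 0.353), 0.18 for the CREB coactivator Crtc2 (adjusted p = 0.713) and 0.16 for Rps6ka1 (adjusted p = 0.664) by limma. Rps6ka3 was present on 3 of 6 p25alpha and 5 of 6 mock arrays, and the SE of its difference was 0.58. Creb1 itself had -0.10 ± 0.10 (SE). A dimmer probe set of Srf, the serum response factor, present on 2 of 6 p25alpha and 0 of 6 mock arrays, had a larger difference that did not pass (limma adjusted p = 0.24), while the brightest Srf probe set had 0.08. An array of transcripts does not read the activity of these proteins, which was not tested.

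Partners and modifiers of the NR4A proteins likewise had 0 calls among 21 tested of 24, with a median log2 difference of 0.007 and 13 higher in p25alpha cells. The largest by the brightest probe set was -0.57 ± 0.11 (SE) for Rxrb, a retinoid X receptor that dimerises with Nr4a1 and Nr4a2, with a limma adjusted p of 0.121. Rxrb was the lower on the p25alpha array in 5 of 6 pairs and was present on 3 of 6 p25alpha and 4 of 6 mock arrays. Some dimmer probe sets had larger differences that did not pass. Among them was 1 of Ncor1, present on 6 of 6 arrays of each arm, at -0.59 (limma adjusted p = 0.15), while the brightest Ncor1 probe set had 0.005. The kinase genes Mapk7 and Mapk14 had -0.40 and -0.38, and Rcor1, a corepressor through which Nr4a2 acts in glia, had 0.39, with limma adjusted p-values of 0.533, 0.189 and 0.301. Mapk7 was present on only 2 of 6 p25alpha and 2 of 6 mock arrays.

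Genes described as NR4A targets in other cell types gave 0 calls too, with 15 of 34 bright enough to test. Their median log2 difference was 0.061, and 10 of 15 were higher in p25alpha cells. The largest differences were 0.76 for Faslg, the Fas ligand (adjusted p = 0.174), 0.66 for Pygm, muscle glycogen phosphorylase (adjusted p = 0.671), 0.55 for the cell cycle factor E2f1 (adjusted p = 0.132) and 0.40 for Pck1, a gene of glucose synthesis (adjusted p = 0.57), all by limma. Pygm was present on only 1 of 6 p25alpha and 1 of 6 mock arrays, Pck1 on 3 and 1, and Faslg on 6 and 3. Faslg and E2f1 were higher in p25alpha cells in 6 of 6 pairs, as were 5.99% of all tested probe sets. Birc5, an inhibitor of apoptosis, at -0.30 (limma adjusted p = 0.181) and Txndc5, an ER oxidoreductase, at -0.24 (limma adjusted p = 0.283) were lower in 6 of 6 pairs. Both were added after their values were seen. The share of all tested probe sets lower in 6 of 6 pairs is not given here. Of the other nuclear receptor genes, 22 of 45 were tested, 0 were called, 12 were higher and the median was 0.048. Among the larger differences were Nr1h3 at -0.75, present on 0 of 6 p25alpha and 2 of 6 mock arrays, Rxrb as above, and Ppard at 0.50 (limma adjusted p = 0.277).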

How the data were processed

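Total RNA of 12 samples in 6 groups was hybridised to rat Affymetrix arrays. Per the submitters' processing notes the tool was MAS5. Per the file headers, the deposited tables hold the authors' MAS5 signal (an intensity on a linear scale), detection call, detection p-value and, for each pair of arrays, a log2 signal ratio with a change call (used as the authors' values only). The 2 deposited tables differed by at most 0.5 in signal, and 3 probe sets were not analysed here.

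A floor of 0.1 was set on the signals (it held 16 values of tested probe sets), which were log2 transformed and fitted with limma 3.58.1 in R 4.3.3: 6 group means plus the experiment as a fixed block (5 residual degrees of freedom), eBayes, and Benjamini-Hochberg adjustment over the 19248 probe sets present on at least 2 arrays. The fit was tested on simulated data. The block was kept because each label carries an experiment number, and because arrays of 1 experiment deviated together from the means of their groups: over 15 pairs of groups the correlation was 0.47 to 0.57. The median log2 signal differed between p25alpha and mock arrays by 0.01 ± 0.04 (SD, 6 pairs). Other normalizations, filters and scales, and fits without the block or without single arrays, were tried as alternatives. The array count limits the precision. A gene with several probe sets stands by its brightest tested one.

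Of the symbols, 20108 probe sets had 1, 347 several and 10641 none, and 2056 symbols were not found in RefSeq. For the 3 genes every probe set is named. For each list, genes past the threshold and up to 4 with the largest change are named, with Creb1, Pde4b, Egr2, Srf, Birc5 and Txndc5 added after their values were seen, and for likeness the highest r values. Some items that these rules would name are not reported here. The members and lists were chosen with earlier results of these data known. Lists overlap in Rxra, Rxrb, Rxrg, Nr0b1, Nr0b2 and Bdnf. Other cell type lists gave 0 calls over all times. Their summed signals overlapped between the arms: neuron 646 to 978 in p25alpha and 576 to 1133 in mock cells, astrocyte 1810 to 3050 and 1776 to 3195, microglia 38 to 92 and 39 to 99, fibroblast and smooth muscle 203 to 449 and 284 to 453.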

Additional observations from a re-analysis of the deposited data

Results flagged for a closer look

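For Nr4a2 (1369007_at) the pairs went in opposite directions at different times. Both 8 h pairs were lower in p25alpha cells, at log2 ratios of -0.17 and -0.45, and both 16 h pairs were higher, at 0.76 and 0.64. The limma F-test of a difference between times gave F = 1.09 and an adjusted p of 0.999. Of these 8 arrays, 3 of the 4 p25alpha arrays and 1 of the 4 mock arrays were called present.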

How the results depend on the processing

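The main count over all times was 1 NR4A probe set, Nr4a3 (1369067_at). It stayed 1 with the experiment as a random block (adjusted p 0.0306), with log2 of signal plus 50 (0.00102) and with trend and robust eBayes (0.00232). It became 0 without the replicate block (log2 difference 0.7445, adjusted p 0.252), with quantile normalization (0.7295, 0.0861), median centring (0.7363, 0.0927) and no filter on dim probe sets (0.7445, 0.17). It was also 0 among only the probe sets above the median signal, which did not include it, and with any single array left out (0.6621 to 0.827, adjusted p 0.0508 to 0.173). Over all probe sets, 46 calls became 4 without the block, 12 to 33 with 1 array left out, 17 with no filter on dim probe sets, 357 among those above the median signal, 419 with trend and robust eBayes and 466 on the plus 50 scale. At 12 h the plus 50 scale gave 1 call, Nr4a3 at 0.6166 (adjusted p 0.0344). The exact test of Nr4a3 ranged over 0.698 to 0.832 with 1 pair left out, where 5 pairs cannot go below p = 0.0625. Nr4a3 minus Nr4a1 ranged over 0.939 to 1.07 and Nr4a3 minus Nr4a2 over 0.429 to 1.251, both at adjusted p = 0.0938; with the mean of probe sets they were 0.766 (0.0938) and 0.826 (0.2812). Nr4a2 minus Nr4a1 turned to 0.182 on the plus 50 scale. The cause was not tested.

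With 1 array left out, these log2 differences changed direction. Between the arms they were Nr4a2 over all times (-0.9052 to 0.2973), at 12 h (-3.108 to 0.4988) and at 16 h (-0.0869 to 1.49), Nr4a1 at 8 h (-0.3672 to 0.119), and Nr4a3 by 1393389_at at 8 h (-0.0991 to 0.5902) and 16 h (-0.2508 to 0.1799). Against 8 h in p25alpha cells they were Nr4a2 at 12 h (-2.993 to 0.6141) and 16 h (-0.358 to 1.075) and 1393389_at at 12 h (-0.4879 to 0.576) and 16 h (-0.2982 to 0.3911). Against 8 h in mock cells they were Nr4a2 at 12 h (-0.6278 to 0.2412) and 16 h (-1.44 to 0.1367), Nr4a3 by 1369067_at at 12 h (-0.4302 to 0.06473) and 16 h (-0.3469 to 0.148), 1393389_at at 12 h (-0.863 to 0.07049) and Nr4a1 at 16 h (-0.3146 to 0.01385). In the exact tests they were Nr4a2 (-0.517 to 0.269) and Nr4a2 minus Nr4a1 (-0.293 to 0.523).

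Over 36 tested values of the members and 705 alternatives, 667 kept their direction and side of the threshold, 16 lost the call, 1 gained it and 21 changed direction. Only Nr4a3 (1369067_at) over all times had a call to lose, and all 16 losses were its own. It kept the call in 3 of its 19 alternatives. F values have no sign and could not change direction, so the tally does not measure how stable that call was. Dim signals limit Nr4a2 and 3 untested probe sets.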
